A study of Mus musculus with 7 samples.

Results

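Genes of the kidney's nerves and of the neural crest were followed in RNA-seq libraries of the whole embryonic mouse kidney at E15.5, a stage at which nephrons are still forming. The set was chosen by symbol and named 9 genes, of which 6 were analysed here among the 16167 genes of the table: Elavl4, Stmn2, Tubb3, Nefl, Nefm and Ngfr. Elavl3, Th and Sox10 were not analysed here. The 4 mutant libraries came from Six2-Cre; Irx3/5(loxP/loxP) embryos, in which Six2-Cre, active in nephron progenitors, recombines floxed Irx3 and Irx5 on both chromosomes. The 3 control libraries came from Irx3/5(loxP/+) littermates, which carry 1 floxed chromosome, whose genotype field reads WT, and for which no Cre is named, so the deletion and the Cre transgene cannot be told apart. The labels give 1 age for all embryos and do not say how many embryos entered a library, so p-values measure only the spread between these samples.

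Sympathetic and sensory axons enter the kidney along its arteries, accompanied by Schwann cells, and both the neurons and the glia derive from the neural crest. They do not descend from the nephron progenitors in which Six2-Cre acts. The neuronal cell bodies lie mainly outside the organ, so a whole kidney holds axons, glia, any attached ganglion cells, and other kidney cells that use the same genes. Elavl4 encodes HuD, a neuronal RNA-binding protein, and Tubb3 and Stmn2 encode a tubulin and a tubulin-binding protein of growing axons. Nefl and Nefm encode the light and medium neurofilament subunits, which pair in the axon's intermediate filaments. Ngfr encodes p75, a receptor shared by the neurotrophins, which is found on neurons, on Schwann cells and on mesenchymal cells.

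The depth, as whole reads summed over all genes of the table, ran from 40511920 to 69028943 per library. Values are given in FPKM, read fragments scaled by gene length and library depth, which allows levels to be compared between genes. Of the targeted genes, Irx3 was at 12.7 to 14.7 FPKM in controls and at 3.98 to 6.75 FPKM in mutants, and it fell (-1.16, SE 0.15; limma adjusted p = 0.0145). Irx5 was at 1.36 to 1.59 FPKM in controls and at 0.895 to 2.05 FPKM in mutants, with overlapping groups and a difference of -0.015 (SE 0.17; limma adjusted p = 0.989; 95% interval from -0.41 to 0.38). Which part of Irx5 the recombination removes is not given in the sources used here, and whether reads came from the remaining part was not tested. Kidney markers were present in all libraries, with Six2 at 28.9 to 62.8 FPKM and Wt1 at 41.1 to 57.3 FPKM. Control replicate 1 stood apart in skeletal muscle RNA: the 8 muscle markers analysed summed to 88.1 FPKM there and to 13.9 to 15.6 FPKM in the other 6 libraries. Results that rest on this library are given with and without it. As a measure of stage, the embryonic globin gene Hbb-y had 1.34% to 3.45% of the level of adult Hbb-bs among controls. In mutants it stood at 1.38% to 2.24% except in replicate 3, at 10.5%.

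Promoter sequence is shown for the 3 members with a RefSeq entry at hand, since Elavl4 and Ngfr had all mutants below all controls and Tubb3 did not. Each run is the 250 bases before an annotated start on assembly GRCm38.p6, 5′ to 3′ on the gene's strand, while the deposited table was made on mm39. RefSeq gives 4 starts for Elavl4, of which 2 are printed. Capitals mark matches on either strand to the E-box hexamers CAGCTG and CAGATG, bound by bHLH factors, to the GC box GGGCGG, and to TCAGCACC, letters of the first part of the RE1 element that the repressor REST binds.
Elavl4 upstream start, chr4:110351912-110352161, minus strand: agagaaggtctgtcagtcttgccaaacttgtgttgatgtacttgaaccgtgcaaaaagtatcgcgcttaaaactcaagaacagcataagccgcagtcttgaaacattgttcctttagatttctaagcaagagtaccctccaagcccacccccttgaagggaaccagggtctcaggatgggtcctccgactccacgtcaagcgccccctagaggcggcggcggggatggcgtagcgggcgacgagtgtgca
Elavl4 downstream start, chr4:110287528-110287777, minus strand: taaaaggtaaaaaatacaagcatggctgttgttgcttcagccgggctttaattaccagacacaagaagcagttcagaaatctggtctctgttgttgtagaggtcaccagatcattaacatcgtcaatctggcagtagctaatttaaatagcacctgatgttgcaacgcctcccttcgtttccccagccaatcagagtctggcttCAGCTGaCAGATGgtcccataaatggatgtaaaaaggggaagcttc
Ngfr, chr11:95587699-95587948, minus strand: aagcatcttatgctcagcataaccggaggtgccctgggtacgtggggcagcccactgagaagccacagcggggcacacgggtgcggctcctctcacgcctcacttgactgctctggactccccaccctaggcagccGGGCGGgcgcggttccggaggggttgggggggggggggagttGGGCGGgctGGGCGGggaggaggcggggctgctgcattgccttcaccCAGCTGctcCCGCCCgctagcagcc
Tubb3, chr8:123411303-123411552, plus strand: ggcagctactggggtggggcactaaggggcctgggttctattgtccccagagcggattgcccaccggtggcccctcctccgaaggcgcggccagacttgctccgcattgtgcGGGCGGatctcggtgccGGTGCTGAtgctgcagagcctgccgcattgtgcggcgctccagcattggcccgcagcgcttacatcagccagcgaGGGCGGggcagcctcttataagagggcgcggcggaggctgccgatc
The downstream of the 2 printed Elavl4 windows held CAGCTG and CAGATG side by side, 1 match each. The upstream window held no match to any of the motifs. Of the Elavl4 windows not printed, that at chr4:110287512-110287761 overlaps the printed downstream window and holds the same pair. The window at chr4:110286835-110287084, the farthest downstream, held 1 CAGATG on the minus strand and no CAGCTG. The Ngfr window held 4 GC boxes and 1 CAGCTG, and the Tubb3 window held 2 GC boxes and 1 TCAGCACC on the minus strand. Of 32851 promoter windows of the same length, 13.0% held CAGCTG, 14.4% CAGATG, 32.7% GGGCGG and 1.32% TCAGCACC. The palindrome ACANNTGT, a sequence bound by Iroquois proteins, was searched on both strands as well. Of all windows 6.31% held it, and the 4 printed windows did not. A match or its lack describes the letters in the window only. Bases that are G or C made up 70.4% of the Ngfr window, 68.0% of the Tubb3 window and 53.6% and 44.0% of the 2 printed Elavl4 windows. The median over all windows was 52.4%.

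Across controls the mean level ran from Ngfr at 16.9 FPKM through Stmn2 at 3.04, Elavl4 at 2.08, Nefl at 1.88 and Tubb3 at 1.63 to Nefm at 0.932 FPKM. Ngfr stood clear of all others, and Stmn2 stood clear of Elavl4, the next by mean. The Nefl and Tubb3 values of control replicate 1, at 3.21 and 3.77 FPKM, fell within the range of Stmn2. The ranges of Elavl4, Nefl, Tubb3 and Nefm overlapped from each to the next. These overlaps came from control replicate 1 alone. In control replicates 2 and 3 Nefl averaged 1.22, Tubb3 0.554 and Nefm 0.438 FPKM, and no 2 members overlapped. Across mutants the order was Ngfr at 10.9, Stmn2 at 3.39, Elavl4 at 1.10, Tubb3 at 0.872, Nefl at 0.512 and Nefm at 0.471 FPKM, with overlap between Elavl4 and Tubb3 and between Nefl and Nefm.

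Elavl4 was lower in mutants, and it was the member that passed the test. Elavl4 (ENSMUSG00000028546.18) stood at 2.11, 1.83 and 2.30 FPKM in control replicates 1 to 3 and at 0.982, 1.25, 1.08 and 1.11 FPKM in mutant replicates 1 to 4. All 4 mutants lay below the lowest control, as they did for 8.61% of the genes tested, and neither group had a library far from its others. The mean fell from 2.08 ± 0.24 FPKM (SD, n = 3) to 1.10 ± 0.11 FPKM (SD, n = 4), that is to 0.53 of the control mean. The difference was -0.55 (SE 0.088) on the log2(FPKM + 1) scale, which understates changes of low values, with a limma adjusted p of 0.0296 over all 13466 genes tested. Across those genes 1.53% were called changed at an adjusted p under 0.05 and 1.05% were called lower. Elavl4 rested on 509 to 795 reads per control library and 267 to 314 per mutant library. Its call was lost in 6 of the 7 fits that left out 1 library, with adjusted p from 0.0554 to 0.118, and was kept without mutant replicate 1 (limma adjusted p = 0.0283). Its fold change ran from -0.61 to -0.50 over those omissions, and it was -0.54 without control replicate 1. In whole-kidney RNA, fewer cells with a transcript and less of it per cell cannot be told apart.

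Ngfr was the most abundant member, and its mutants all lay below its controls, as for 8.61% of the genes tested. Ngfr (ENSMUSG00000000120.7) stood at 14.7, 16.7 and 19.4 FPKM across controls and at 12.8, 8.20, 11.0 and 11.6 FPKM across mutants. Control replicate 1, the library rich in muscle RNA, was the lowest control here. The means were 16.9 ± 2.35 FPKM (SD, n = 3) and 10.9 ± 1.94 FPKM (SD, n = 4), with 1322 to 3540 reads per library. The difference of -0.60 (SE 0.14) missed limma's threshold (adjusted p = 0.0866), with a 95% interval from -0.92 to -0.27. The authors' deposited table has a log2 fold change of -0.63 for Ngfr with an adjusted p of 0.0029. That table's DESeq2 test called 3.74% of its 16153 genes with a p-value lower in mutants.

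Nefl was lower in every mutant than in any control, as were 8.61% of the genes tested, and Nefm was not. Nefl (ENSMUSG00000022055.8) stood at 3.21, 1.23 and 1.21 FPKM across controls and at 0.637, 0.379, 0.514 and 0.519 FPKM across mutants. Nefm (ENSMUSG00000022054.12) stood at 1.92, 0.477 and 0.400 FPKM across controls and at 0.411, 0.329, 0.612 and 0.533 FPKM across mutants. For both subunits control replicate 1 was the highest library, at 2.61 times the next highest for Nefl and 3.14 times for Nefm. Against the mean of control replicates 2 and 3 the mutant mean was 0.42 for Nefl and 1.07 for Nefm, so the pair differed in this ratio without that library. Whether this ratio differs between the 2 genes beyond their error was not tested. Nefl had a difference of -0.86 (SE 0.21; limma adjusted p = 0.096) with all libraries and of -0.56 (SE 0.11; limma adjusted p = 0.108) without control replicate 1. The authors' deposited table gives Nefl a log2 fold change of -1.88 (adjusted p = 1.52e-05) and Nefm one of -0.99 (adjusted p = 0.567). Nefl reached 1 FPKM in the 3 controls and in no mutant, so it entered the test only through the group where it was high. It rested on 60 to 116 reads per mutant library and 168 to 758 per control library.

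Tubb3 showed a high value in 1 control and no separation of the groups. Tubb3 (ENSMUSG00000062380.5) stood at 3.77, 0.573 and 0.534 FPKM across controls and at 0.646, 0.915, 1.28 and 0.647 FPKM across mutants. All 4 mutants lay above control replicates 2 and 3 and below control replicate 1. The ratio of the mutant mean to the control mean was 0.54 with all controls and 1.57 against the mean of control replicates 2 and 3, so its direction turned with that library. Tubb3 and Nefm were below the minimum of 1 FPKM in 3 libraries and were not tested in the main comparison. Without that minimum their differences were -0.28 and -0.31 (limma adjusted p = 0.863 and 0.688). Tubb3 rested on 41 to 110 reads in every library but control replicate 1, which had 492.

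Stmn2 did not differ detectably between groups. Stmn2 (ENSMUSG00000027500.11) stood at 4.04, 2.50 and 2.57 FPKM across controls and at 2.30, 3.54, 5.92 and 1.80 FPKM across mutants. The mutants held both the highest and the lowest of the 7 values, and mutant replicate 3, the library with the largest share of embryonic globin, was the highest. The difference was 0.052 (SE 0.31; limma adjusted p = 0.976), and its 95% interval from -0.67 to 0.78 spans falls and rises larger than the change of Elavl4. Its sign changed to -0.20 without mutant replicate 3. Mutant replicate 3 was also the highest mutant for Tubb3 and Nefm, but not for Elavl4, Nefl or Ngfr. With the log2 globin ratio as a covariate, the differences were -0.56 for Elavl4 (limma adjusted p = 0.0292), -0.63 for Ngfr (0.095), -0.83 for Nefl (0.141) and -0.070 for Stmn2 (0.943).

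**Figure D1:**
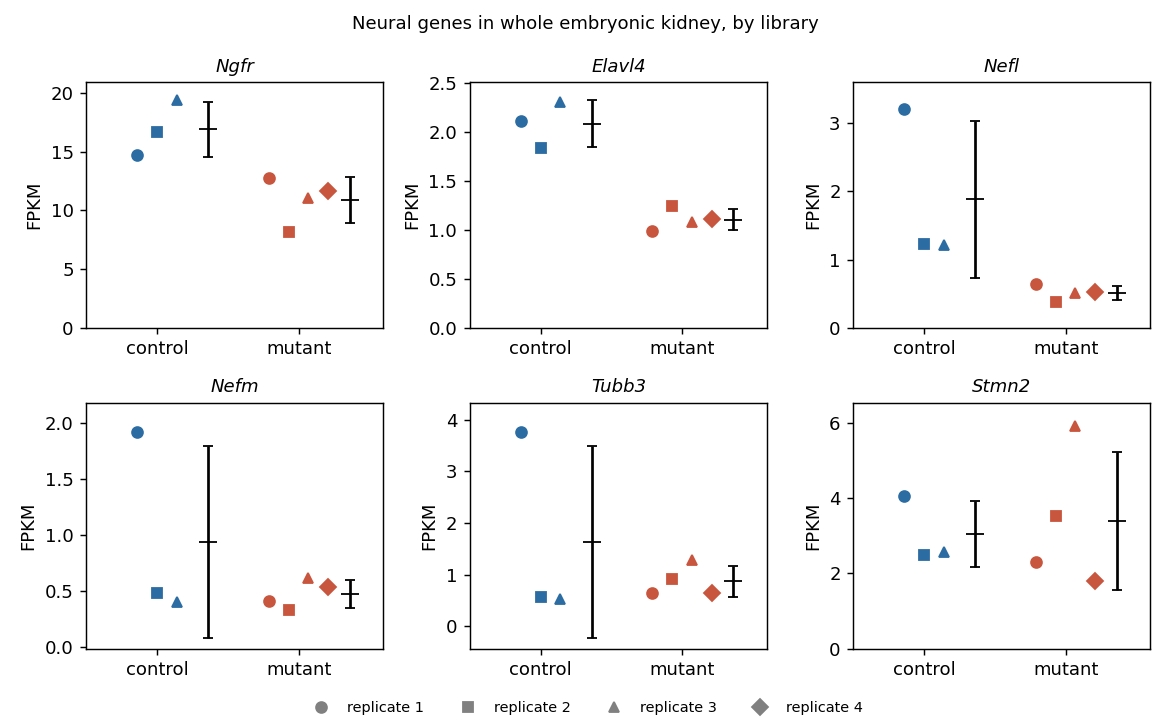
FPKM of the 6 members (y axes, each from 0 or below to the panel's highest value) in 3 control and 4 mutant libraries. Symbols are replicates, and bars are mean ± SD. Elavl4, Ngfr and Nefl have all mutants below all controls, as do 8.61% of the genes tested. Control replicate 1 (circle) is the highest library for Nefl, Nefm and Tubb3.

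The members differed in which library was highest. Elavl4 and Ngfr had their highest value in control replicate 3, and Stmn2 in mutant replicate 3. Tubb3, Nefl and Nefm had their highest value in control replicate 1, at more than 2 times the highest of the other 6 libraries. Of all 16167 genes listed, 34 did so (0.21%), against 1 to 9 genes for each of the other 6 libraries. The measure was chosen after these values were seen. Of the 34, 13 were in the member, neural or muscle lists: the 3 members, 7 of the 8 muscle markers analysed, and Kif5a, Chga and Gfra3. Without the 2-fold requirement, control replicate 1 was the highest library for 2197 of all 16167 genes listed. It was highest for 18 of 36 other pan-neuronal, 11 of 18 sympathetic and 13 of 26 Schwann cell and neural crest genes. The count was 3 of 7 for sensory neuron genes and 2 of 21 for neurotrophin and GDNF family genes. Some genes are in more than 1 list, and these counts were not tested. Acta1 and Myh3, of muscle actin and embryonic myosin, stood at 18.7 and 5.21 FPKM in control replicate 1 and at no more than 1.00 and 0.226 FPKM elsewhere. Kif5a, a motor of axonal transport, was at 0.880 FPKM there and at most 0.178 FPKM elsewhere. Gfra3, the artemin receptor of sympathetic and sensory neurons and Schwann cell precursors, was at 1.42 FPKM there and at most 0.468 FPKM elsewhere. Chga, the chromogranin of secretory granules, was at 1.06 FPKM there and at most 0.391 FPKM elsewhere. The part that the tissue carrying muscle RNA played in the Nefl, Nefm and Tubb3 values was not tested. Nefl had all mutants below control replicates 2 and 3, but the share of all genes that do so was not counted. Nefl also passed the minimum only through the controls.

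**Figure D2:**
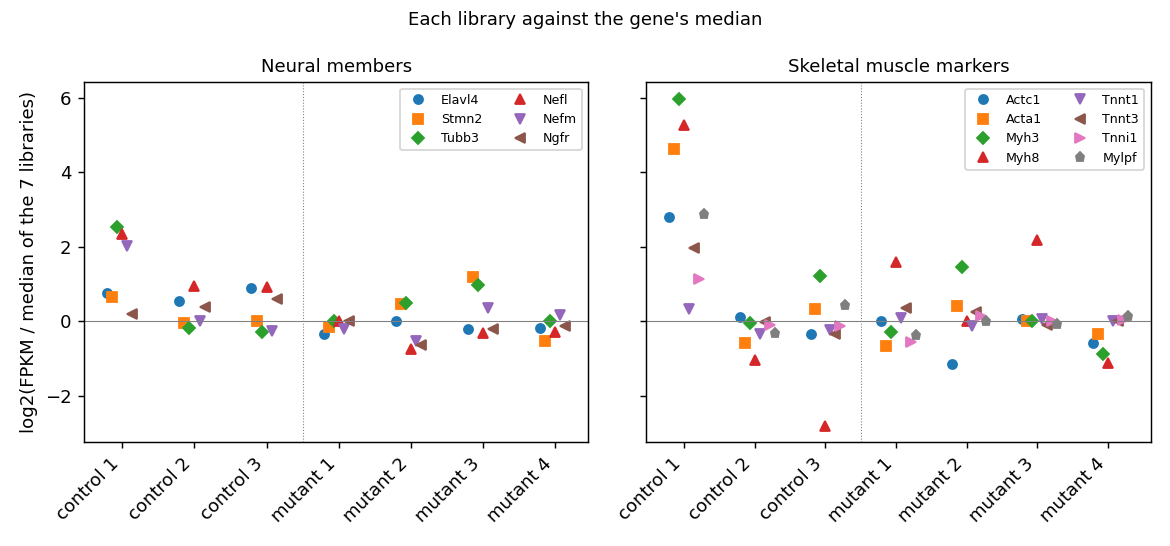
Log2 ratio of FPKM to each gene's median over the 7 libraries (y axis), for the 6 members and the 8 skeletal muscle markers, with libraries along the x axis. Control replicate 1 is high for Tubb3, Nefl and Nefm and for 7 of the muscle markers, while Elavl4 and Ngfr are not highest there.

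Other neural genes, taken from 5 lists of neuronal, sympathetic, sensory, glial and neurotrophic genes, changed in both directions. Of 66 tested besides the members, 2 rose and 3 fell, 7.58% in all, against 0.475%, 1.05% and 1.53% of all genes tested. Without control replicate 1 the calls came to 1 of 66 (1.52%), lower, against 0.201% of all genes tested. The authors' deposited table calls 13 of 100 of these genes (13.0%), against 5.49% of all its genes with a p-value. The lists were chosen with earlier results of these data known, so these shares describe the lists and do not test them. Of 50 further pan-neuronal genes, 36 were analysed and 24 tested: 2 rose, 1 fell and 21 did not pass, with a median difference of 0.034 beside -0.0020 over all genes tested. Snap91, which encodes the clathrin adaptor AP180 of synaptic vesicle recycling, stood at 6.59, 6.87 and 7.03 FPKM across controls and at 2.13, 1.84, 2.72 and 2.83 FPKM across mutants. Its groups were far apart, and its difference of -1.22 (SE 0.11; limma adjusted p = 0.0033) kept its call in all 7 omissions of a library. Thy1, a surface glycoprotein of neurons that stromal cells also carry, rose from 15.0 ± 0.61 to 22.1 ± 2.19 FPKM (0.53, SE 0.083; limma adjusted p = 0.0272). Syt4, a synaptotagmin, rose from 1.01 ± 0.15 to 1.81 ± 0.20 FPKM (0.48, SE 0.093; limma adjusted p = 0.0466). The Thy1 call was kept in 2 of 7 omissions and the Syt4 call in 1.

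Of 27 sympathetic and catecholamine genes, 18 were analysed and 10 tested. Of these, 1 fell and 9 did not pass, with a median difference of -0.0087. A limma unadjusted p under 0.05 was reached by 6 of the 10, against 1850 of all 13466 genes tested. All mutants lay below all controls for 2 of the 10 and above them for 3, against 1160 and 798 of all genes tested. The authors' deposited table calls 2 of the 18 lower and 2 higher, against 5.49% of all its genes with a p-value in either direction. Slc18a1, the vesicular monoamine transporter of chromaffin cells, stood at 2.44, 2.69 and 2.32 FPKM across controls and at 1.03, 0.893, 0.264 and 0.614 FPKM across mutants. All mutants lay below all controls, as for 8.61% of the genes tested. The difference was -1.06 (SE 0.15; limma adjusted p = 0.0208), a call kept in 3 of 7 omissions. Slc18a1 reached 1 FPKM in the 3 controls and 1 mutant, so it was tested largely through the group where it was high. It rested on 305 to 547 reads per control library and 39 to 178 per mutant library. Pnmt and Slc18a2 of the same list, named after their values were seen, were below the minimum for testing. Pnmt was at 0.654 to 1.17 FPKM in controls and 0.304 to 0.547 FPKM in mutants. Slc18a2 overlapped between groups, at 0.291 to 0.593 FPKM in controls and 0.344 to 0.570 FPKM in mutants. The list also holds Ret and Gata3, which the ureteric epithelium of the kidney expresses, so it does not report on nerves alone. Of 8 adrenal cortex markers analysed, none was at 0 in any library; they summed to 46.4 to 51.4 FPKM in controls and 37.0 to 44.3 FPKM in mutants. Most of this sum came from Scarb1, Akr1b7 and Fdx1, which are not restricted to the adrenal. Among the steroidogenic markers, Cyp11a1 was at 0.197 to 0.482 FPKM and Star at 0.109 to 0.208 FPKM over all libraries. Nr0b1 went the other way from the sum, at 0.198 to 0.296 FPKM in controls and 0.360 to 0.647 FPKM in mutants, below the minimum for testing. Of the 5 tested, 1 rose, the corticotropin receptor gene Mc2r (0.48, SE 0.094; limma adjusted p = 0.0472). The other 4 differences lay below 0, with Fdx1 at -0.68 and Akr1b7 at -0.58, and limma called none of these 4. The authors' deposited table calls 2 of the 8 lower and 1 higher. The part of attached adrenal tissue in the Slc18a1 difference was not tested.

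Of 19 sensory neuron genes, 7 were analysed, and too few passed the minimum to describe the list by its differences.

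Of 33 Schwann cell and neural crest genes, 26 were analysed and 19 tested, and limma called 0 changed. This count leaves out the genes below the minimum for testing. Among those, Dhh was at 0.493 to 0.849 FPKM in controls and 0.237 to 0.443 FPKM in mutants. Egr2 was at 0.215 to 0.316 FPKM in controls and 0.0755 to 0.138 FPKM in mutants. Both were named after their values were seen, and the other untested genes of the list overlapped between groups. Of the 19 tested, 4 reached a limma unadjusted p under 0.05, against 1850 of all 13466 genes tested. The authors' deposited table calls 4 of the 26 lower and 1 higher, against 5.49% of all its genes with a p-value in either direction. The list's median difference was -0.072. Tfap2b, a neural crest factor that distal nephron cells also express, was at 8.77 ± 0.96 FPKM in controls and 6.41 ± 0.47 FPKM in mutants (-0.40, SE 0.088; limma adjusted p = 0.0714). Sox8, a relative of Sox10, was at 2.06 ± 0.15 and 1.40 ± 0.13 FPKM (-0.35, SE 0.083; limma adjusted p = 0.0823).

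Of 22 neurotrophin and GDNF family ligands and receptors, 21 were analysed and 16 tested; 1 fell and 15 did not pass, with a median difference of 0.079. Nrtn, the ligand neurturin, stood at 4.64, 4.98 and 2.17 FPKM across controls and at 1.07, 0.0836, 0.340 and 0.876 FPKM across mutants (-1.62, SE 0.29; limma adjusted p = 0.0471), a call kept in 2 of 7 omissions. Nrtn likewise reached 1 FPKM in the 3 controls and 1 mutant, and it rested on 91 to 332 reads per control library and 4 to 59 per mutant library. Ntf3, the neurotrophin-3 ligand gene, named after its values were seen, was at 4.94 ± 0.43 FPKM in controls and 5.54 ± 0.34 FPKM in mutants (limma adjusted p = 0.523). Of 9 genes of REST and its corepressors, limma called 0 changed, and the authors' deposited table called 0. Hdac1 had a limma unadjusted p under 0.05, as did 1850 of all 13466 genes tested. Rest itself, also named after its values were seen, was at 14.8 to 17.2 FPKM in controls and 14.9 to 18.2 FPKM in mutants.

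**Figure D3:**
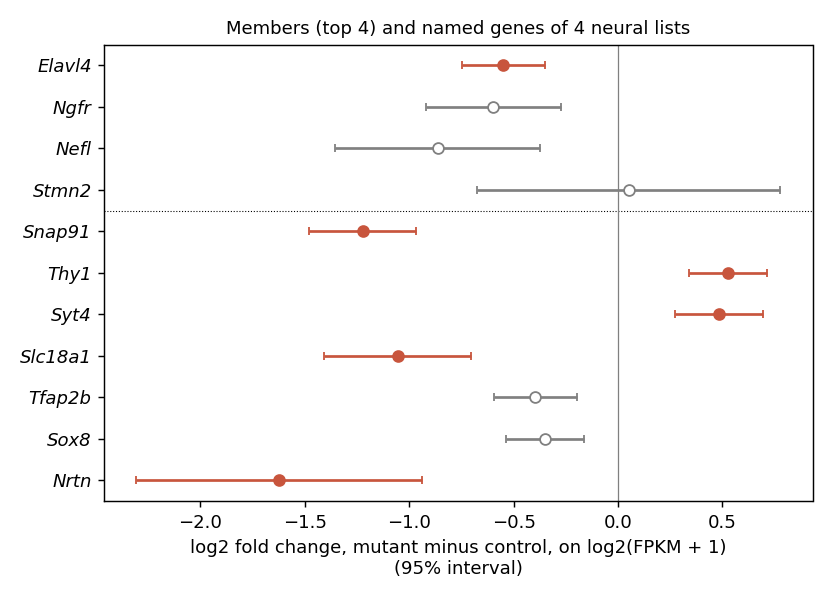
Difference between mutants and controls on the log2(FPKM + 1) scale (x axis) with 95% intervals for the 4 tested members, above the dotted line, and named genes of 4 neural lists, below it. Filled points passed limma's adjusted threshold: Elavl4, Snap91, Slc18a1 and Nrtn lie below 0, and Thy1 and Syt4 above.

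**Figure D4:**
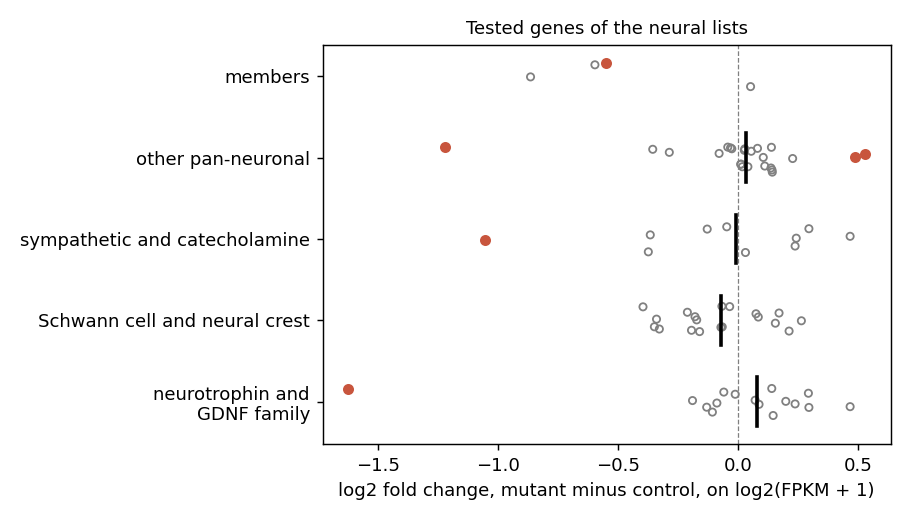
Differences on the log2(FPKM + 1) scale (x axis) of all tested genes of the members and 4 neural lists (y axis), filled where limma called a change. Thick bars are list medians and the dashed line is the median of all genes tested; the medians of the 4 lists lie between -0.072 and 0.079.

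Markers of some other kidney cells moved between the groups as well. Of 22 stromal genes tested, 4 rose, among them Aldh1a2 and Cldn11, and the list summed to 907 to 1139 FPKM in controls and 1159 to 1310 FPKM in mutants. Of 14 nephron progenitor genes, 7 fell and 1 rose, and of 14 podocyte genes tested 4 fell. Wt1 is in both lists and counts as a fall in each. Over all genes tested, 0.475% were called higher and 1.05% lower. The authors' deposited table calls 9 of the 22 stromal genes higher and 1 lower. It calls 7 of the 14 progenitor genes lower and 1 higher, and 8 of 15 podocyte genes lower, against 5.49% of all its genes. Stromal, progenitor and podocyte genes reached a limma unadjusted p under 0.05 in 12 of 22, 8 of 14 and 10 of 14 cases. These lists too were chosen with earlier results of these data known, so their counts are a description. Of 14 endothelial genes limma called 0 changed, and the authors' deposited table called 0. A limma unadjusted p under 0.05 was reached by 3 of the 14, against 1850 of all 13466 genes tested. The part of these cell types in the differences of Elavl4, Ngfr and Snap91 was not tested.

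The 5 genes whose profile over the 7 libraries was nearest to the mean profile of the 4 tested members were Tnk1, Rhbdl1, 2900052L18Rik, Sidt2 and Spock2. Likeness was the root-mean-square difference between profiles scaled to an SD of 1, and it was 0.183 to 0.233 SD units for these genes among 13466 compared. The members themselves lay farther from their own mean profile, at 0.42 for Elavl4 and Nefl, 0.67 for Ngfr and 1.10 for Stmn2. Stmn2 thus followed the others least. The mean profile itself had all controls (0.48 to 1.49 SD units) above all mutants (-1.07 to -0.12), so lower values in mutants were fixed by the way these 5 genes were chosen. Their differences, given as a description, ran from -0.49 for Spock2 to -0.18 for Sidt2.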

How the data were processed

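RNA-seq of whole kidneys was analysed in 7 libraries, grouped by sample title. The authors used STAR 2.6.0c, HTSeq 0.6.1p2 and DESeq2 with build mm39, per the submitters' processing notes; the strand setting and gene lengths are not given in the sources used here. The authors deposited FPKM per library and, per the file headers, DESeq2's mean normalized count (a normalized signal), log2 fold change, standard error, test score, p-value and adjusted p-value. Whole reads were recovered from mean count, FPKM share and a size factor per library (100% of values within 0.05 of a whole number). Genes with at least 1 FPKM in at least 3 libraries (13466) were tested on log2(FPKM + 1) with limma 3.58.1 (R 4.3.3; trended, robust empirical Bayes; two-sided; Benjamini-Hochberg over all genes; called at 0.05). Fits that left out a library kept these genes. The pipeline was tested on simulated data. Members and lists were chosen with earlier results of these data known. Named genes were the members, up to 3 called genes per list with the smallest p (otherwise the 2 with the smallest p), and the 5 nearest profiles. Some genes that this rule names are not reported here. Alternatives were another pseudocount, filter, normalization, weighting, covariate, block or test. Promoters came from RefSeq on GRCm38.p6. Tables were made with pandas 2.3.3 and plots with matplotlib 3.10.9 in Python 3.11.15.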

Additional observations from a re-analysis of the deposited data

How the results depend on the processing

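Of the 4 members tested, 1 was called changed. This count was 0 with a minimum of 5 FPKM (which tests Ngfr alone) and with the replicate block. It was 3 of 4 with array weights and 3 of 5 in the deposited DESeq2 test (Elavl4, Nefl and Ngfr, all lower). Leaving out 1 library gave 0 to 1. Over all genes tested 206 of 13466 were called (1.53%), against 109 (0.809%) with a pseudocount of 0.1 and 60 of 9410 (0.638%) with a minimum of 5 FPKM. The count was 1302 (9.67%) with array weights, 2 (0.0149%) with the replicate block and 886 of 16153 (5.49%) in the deposited test. With 1 library left out it was 15 to 481 (0.111% to 3.57%). With a minimum of 5 FPKM, 31 of the calls were higher and 29 lower, against 64 and 142. In the other neural lists 5 of 66 genes were called (7.58%), against 2 (3.03%) with a pseudocount of 0.1 and 2 of 35 (5.71%) with a minimum of 5 FPKM. Array weights gave 10 (15.2%), the replicate block 0 and the deposited test 13 of 100 (13.0%). With 1 library left out the count was 1 to 6 (1.52% to 9.09%). The other alternatives kept these counts within 1.5 times. The replicate block takes replicate numbers as pairs and leaves mutant replicate 4 without a partner. The labels do not say that the numbers mark litters, so the main fit had no block. Same-numbered libraries had correlations of deviations of -0.16, 0.028 and 0.098, and differently numbered libraries had -0.25 to 0.14. These few correlations cannot decide whether the samples are paired. With the replicate block Elavl4 had a difference of -0.55 (limma adjusted p = 0.182). The direction of Elavl4, Nefl and Ngfr was the same in every alternative that tested them, with differences on the log2(FPKM + 1) scale from -0.61 to -0.48, -1.02 to -0.56 and -0.69 to -0.48. On other scales they were -0.86, -1.57 and -0.64 with a pseudocount of 0.1, -0.91, -1.80 and -0.63 by limma-voom on recovered reads, and -0.92, -1.88 and -0.63 in the authors' deposited table. Stmn2 changed sign with array weights (-0.10), the globin covariate (-0.070), limma-voom on recovered reads (-0.016) and without control replicate 2 (-0.041), control replicate 3 (-0.026) or mutant replicate 3 (-0.20), and it was 0.24 without mutant replicate 4. The causes were not tested. Among the members, depth was lowest for Tubb3, Nefm and Nefl, which rested on 41 to 249 reads in each library other than control replicate 1. The called genes Nrtn and Slc18a1 rested on as few as 4 and 39 reads in a mutant library.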
